A study of Rattus norvegicus with 13 samples.

Results

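Glomeruli cut out of kidney sections by laser capture microdissection, titled LCM 800, were compared with glomeruli isolated by iron oxide, magnet and sieve, titled iron and called sieved here. The arrays were chosen by their titles alone, 5 of LCM 800 and 4 sieved, which is 9 of the 13 arrays in the series. All animals were untreated Lewis-Hsd rats of 18 weeks on a regular diet. For the sieved group, 1 kidney was perfused with iron oxide particles through the aorta, and its glomeruli were drawn out by magnet and sieve to a stated purity over 99% under phase contrast. Their RNA was extracted with Trizol and labelled without amplification. For LCM 800, the artery of the opposite kidney was clamped, about 800 glomerular cross-sections were captured from 10 µm tissue sections, and the Trizol RNA went through 2 rounds of amplification. The labels call the arrays biological replicates but do not say which arrays share a rat. The sieved samples' extraction text names anti-Thy1.1 rats as well, which their listing as untreated does not match, and a description field speaks of embryos, which goes against the other fields. Isolation method, perfusion and amplification changed together, so their parts in any difference below cannot be told apart.

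The glomerulus is a capillary tuft that filters plasma into the nephron. Its wall is built by fenestrated endothelium, a basement membrane and podocytes, whose foot processes are bridged by the slit diaphragm, and mesangial cells hold the capillary loops together. The filtrate passes into the proximal tubule, which takes back sodium, phosphate, glucose, amino acids and filtered protein. Proximal cells are rich in mitochondria and oxidise fatty acids, while thick limb, distal tubule and collecting duct follow further along. Tubules surround glomeruli on every side in a kidney section.

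Signals are linear intensity units of 1-colour rat arrays, and a probe set is a group of short probes for 1 transcript. Changes are differences of mean log2(signal + 65.29), LCM 800 minus sieved, given ± SE of the fit. A gene is said to have risen or fallen where limma's test gave an adjusted p under 0.05. Adjusted p values are two-sided, come from limma with Benjamini-Hochberg adjustment over 11106 probe sets, and measure only the spread between these arrays. Precision is limited by how many arrays there were.

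The arrays had been scaled to a common level, and their median signals lay between 259.7 and 321 intensity units. Over the tested probe sets, sieved replicates 1, 2 and 4 correlated at 0.964 to 0.984, and sieved replicate 3 correlated with them at 0.873 to 0.897. Sieved replicate 3 was also closer to LCM 800, at 0.547 to 0.688, than the other sieved arrays were, at 0.470 to 0.568. Within LCM 800, replicates 1 to 3 correlated at 0.893 to 0.930 and replicates 4 and 5 at 0.937, but the pairs across these subsets reached only 0.718 to 0.812. These correlations run across probe sets, which are not independent replicates. The 3′ minus 5′ log2 signal of the β-actin control, a measure of how far cDNA reached from the RNA's 3′ end, was 2.77 ± 1.03 (SD, n = 5) in LCM 800 and 0.55 ± 0.02 (SD, n = 4) in the sieved arrays. For GAPDH it was 1.22 ± 0.49 against 0.52 ± 0.15. Neither control overlapped between the groups, with an exact two-sided permutation p of 0.0159 each, also after adjustment over 3 controls, which is the smallest p that 5 against 4 arrays can give. The third control, hexokinase, went the other way at 0.23 ± 0.33 against 0.73 ± 0.14 on dim signals, with the same p. The part of these differences in the changes below was not tested.

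Of 8081 genes with a tested probe set, each represented by its brightest, 2610 rose and 1602 fell in LCM 800. That is 32.3% and 19.8% of the genes, or 52.1% in either direction (limma adjusted p under 0.05), and these shares are the background for every list below. The median change over all genes was 0.22, with quartiles of -0.48 and 0.77. Rises were more numerous, but the far end lay among the falls, since 95 genes fell and 10 rose by 3 or more on the log2 scale. Arrays of both groups did not overlap in 3481 genes, or 43.1%. On the level of probe sets, 3533 rose (31.8%) and 2231 fell (20.1%), or 51.9% in either direction. Without sieved replicate 3 these counts were 3314 and 2173, with LCM 800 replicates 1 to 3 left out 3038 and 2123, and with replicates 4 and 5 left out 3664 and 2438. Setting all arrays to equal medians lowered the median change of the probe sets from 0.22 to 0.12 and the share of rises among the calls from 61.3% to 55.3%. List medians kept their sign under that scaling and under quantile normalization.

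**Figure D1:**
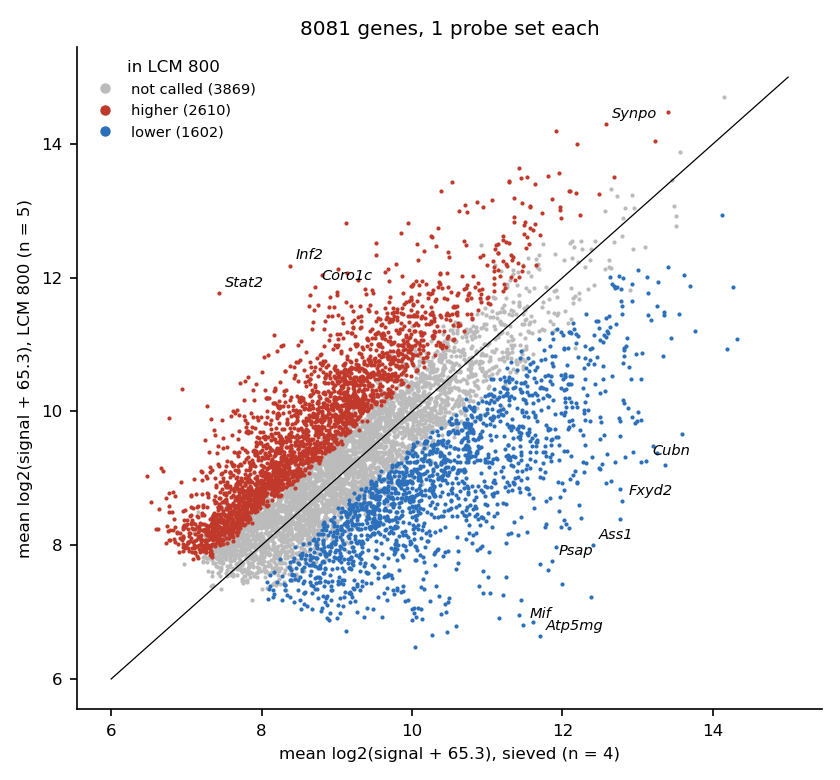
Mean log2(signal + 65.29) of each of 8081 genes in the sieved arrays (horizontal axis) and in the LCM 800 arrays (vertical axis), with the line of equal signal. The 1602 genes that fell (blue) reach farther from the line than the 2610 that rose (red), and 3869 genes passed neither call (grey).

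The 15 largest falls ran from -5.15 to -3.97 on the log2 scale and included genes of tubular transport, of mitochondria and of other functions. Ass1, the argininosuccinate synthase of renal arginine synthesis, read 7392, 8057, 2373 and 5803 intensity units in sieved replicates 1 to 4 and 219, 207, 156, 239 and 144 in LCM 800 replicates 1 to 5. Sieved replicate 3 was the lowest of its group by a wide margin but still far above every LCM 800 array, and Ass1 fell by 4.41 ± 0.31 (limma adjusted p 9.3e-08). Slc4a4, the sodium bicarbonate cotransporter of the basolateral membrane, read 4033, 4014, 2210.1 and 4198 and 62.3, 91, 95.2, 227 and 261 in the same order. It fell by 4.17 ± 0.31 (adjusted p 1.37e-07), again with sieved replicate 3 lowest. Fxyd2, the gamma subunit of the sodium pump, read 8537, 9089, 4175 and 7629 against 675, 426, 435, 207 and 151 and fell by 4.14 ± 0.38 (adjusted p 7.87e-07). In bulk samples such as these, fewer cells of a type and less RNA per cell cannot be told apart.

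Xpnpep2, an aminopeptidase of the brush border, fell by 4.47 ± 0.33, from 3756, 4520.4, 1155 and 2562 to 30.5, 66.7, 116, 44.1 and 49.5. Slc7a12, an amino acid transporter, fell by 4.16 ± 0.45, Slco1a6, an organic anion transporter, fell by 4.75 ± 0.38, Alpl, the tissue alkaline phosphatase, fell by 4.25 ± 0.37, and Oat, the mitochondrial ornithine aminotransferase, fell by 4.37 ± 0.69. Ly6i, of the Ly6 family of surface proteins, fell by 5.15 ± 0.47, the largest fall, and Ppic, a cyclophilin, fell by 4.27 ± 0.47. In these genes the groups did not overlap and sieved replicate 3 was the lowest sieved array. Oat differed within LCM 800 as well, at 120.4, 12.7, 198, 905 and 1107, with replicates 4 and 5 above the other 3.

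Other leading falls were of broadly expressed genes, and for Atp5mg, Mif and Gpx4 the sieved arrays lay closer together than for Ass1. Atp5mg, a membrane subunit of ATP synthase, read 3138, 3174, 3004 and 3727 in the sieved arrays and 29.1, 17.8, 53.9, 59.6 and 18.1 in LCM 800. The LCM 800 signals lay at or under the level added before taking logs, so the change of -5.06 ± 0.23 (adjusted p 2.62e-09) understates the ratio of the signals. Mif, a macrophage cytokine that many cells make, read 2867, 3146, 2201 and 3018 against 102, 59.9, 62.4, 21.1 and 12.9 and fell by 4.66 ± 0.31. Gpx4, which reduces lipid peroxides in membranes, read 4232, 4390.4, 3422 and 4057 against 27.1, 417, 387, 27 and 12.6. It fell by 4.58 ± 0.56, with LCM 800 replicates 2 and 3 well above the other 3. Psap, the precursor of lysosomal saposins, fell by 4.10 ± 0.35. Cd9, a tetraspanin, fell by 3.97 ± 0.33 although sieved replicate 3 was the highest array here, at 2843, 2316, 6801 and 2477 in the sieved arrays.

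The 15 largest rises ran from 2.90 to 4.34, and they came from many functions. Stat2, a transcription factor of the interferon response, read 26.5, 50.1, 203 and 245 in the sieved arrays and 4868, 5775, 5653, 1739.8 and 1696 in LCM 800. Replicates 4 and 5 read lower than the other LCM 800 arrays, yet far above the sieved range, and Stat2 rose by 4.34 ± 0.47 (adjusted p 3.89e-06). Inf2, a formin that remodels actin and is mutated in a familial glomerulosclerosis, read 219, 78.2, 937 and 229 against 14000.5, 10952, 7770.3, 1314 and 1226. It rose by 3.81 ± 0.69 (adjusted p 0.000308), and LCM 800 replicates 4 and 5 were little above sieved replicate 3. Coro1c, an actin-binding coronin, read 272, 353, 483 and 335 against 3836, 3779, 4829.5, 2385 and 3972 and rose by 3.15 ± 0.22. Dlc1 rose by 3.005 ± 0.33, Foxd2, a forkhead transcription factor, by 3.10 ± 0.31, and Gnb5, a G protein beta subunit, by 3.12 ± 0.26.

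Aggf1, an angiogenic factor, rose by 3.12 ± 0.26, Lcmt1, the methyltransferase of protein phosphatase 2A, by 3.68 ± 0.28, and Mad1l1, of the spindle checkpoint, by 3.39 ± 0.33. Rc3h1, an RNA-binding regulator of mRNA decay, rose by 3.23 ± 0.37, Kcng2, a potassium channel subunit, by 2.98 ± 0.40, and Tspan17, a tetraspanin, by 2.95 ± 0.29. Sp110, a nuclear body protein, rose by 2.93 ± 0.25, Exoc3, of the exocyst, by 2.91 ± 0.25, and Cox7a2l, an assembly factor of respiratory supercomplexes, by 2.90 ± 0.27. The rise of Exoc3 was on its brightest probe set. Another of its probe sets fell by 0.93 ± 0.20 (limma adjusted p 0.0012), and a further probe set was not called, at 0.51 ± 0.22. Sieved replicate 3 was the highest sieved array for Aggf1, Lcmt1, Mad1l1, Kcng2, Tspan17, Sp110 and Cox7a2l, but not for Rc3h1 or Exoc3.

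**Figure D2:**
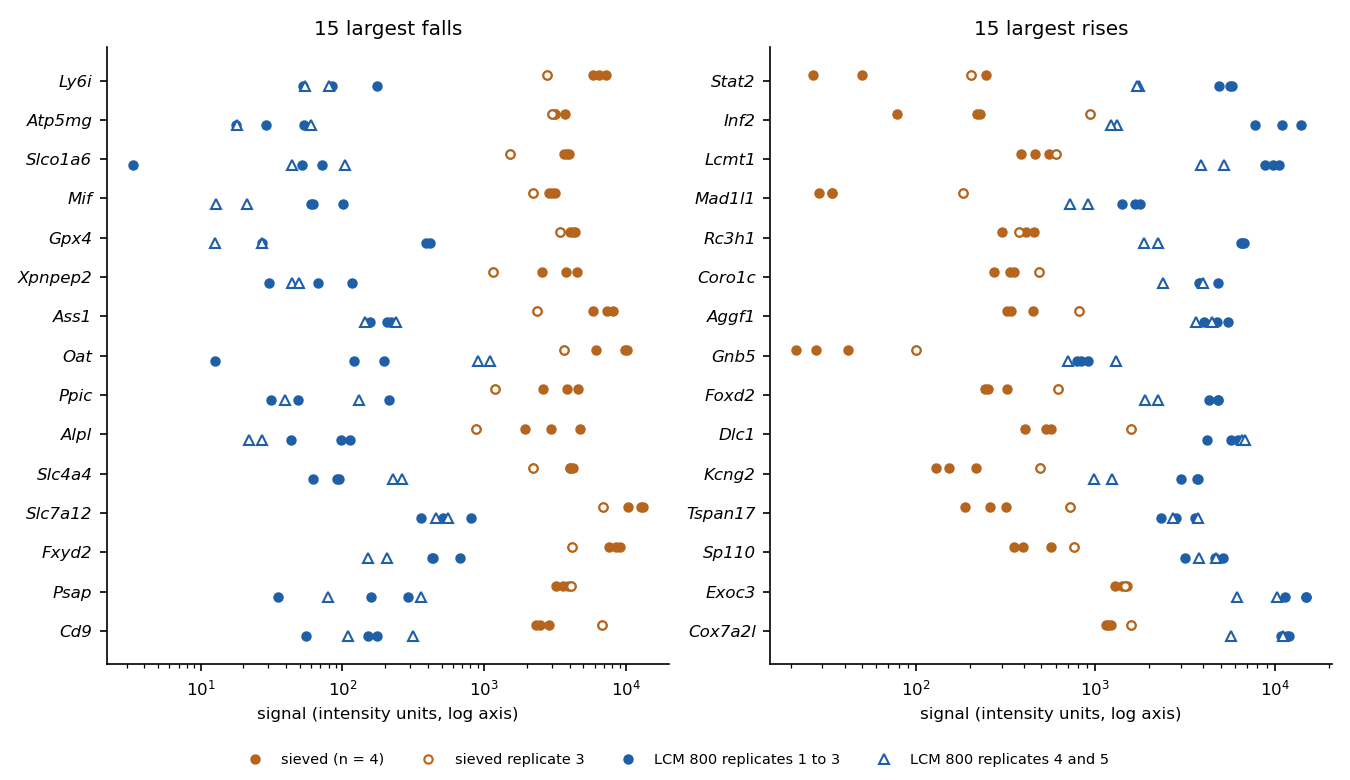
Signal of each array (log axis, intensity units) for the 15 genes with the largest falls (left) and the 15 with the largest rises (right) among genes past limma's test whose groups do not overlap. Open circles mark sieved replicate 3, which lies nearest to the LCM 800 arrays in most of these genes, and triangles mark LCM 800 replicates 4 and 5.

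The position of sieved replicate 3 between the groups was counted with calls made without it. Of 1413 genes that were then at least 1 log2 higher in LCM 800, sieved replicate 3 lay above all other sieved arrays in 932, or 66.0%, and below all of them in 11.5%. Among 1190 genes at least 1 log2 lower it lay below all others in 894, or 75.1%, and above all of them in 13.4%. Over all 8081 genes the shares were 35.9% above and 40.7% below.

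Gene lists were counted next, for functions that the nephron divides between its segments. All 10 measured peptidases of the brush border, the microvillar face of proximal cells, fell, against 19.8% of all genes, with a median change of -2.37. Besides Xpnpep2 these were led by Ggt1, the gamma-glutamyl transferase that cleaves glutathione, which read 14728, 15499, 7544 and 12912 against 1504, 921, 996, 324 and 493 and fell by 3.92 ± 0.45. Mep1a and Mep1b, the meprins, fell, at -3.88 and -2.43, and Anpep, aminopeptidase N, fell by 3.06. The per-array mean log2 of the list had a mean of 11.77 ± 0.52 in the sieved arrays and 9.20 ± 0.21 in the LCM 800 arrays (SD). Mme, Enpep and Dpp4, which podocytes also carry, fell by 2.31, 1.39 and 0.94, the last 2 among the smallest falls of the list. The list members named here beyond the rule given with the methods, and those in the paragraphs below, were picked after their values were seen.

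Endocytosis of filtered protein showed 10 falls and 1 rise among 15 measured genes, with a median of -2.09. Its receptor pair is megalin, coded by Lrp2, and cubilin, coded by Cubn. Lrp2 read 14049, 14415, 8145 and 12059 in the sieved arrays and 2297, 2552, 2626, 3855 and 2639 in LCM 800, so that both groups were bright and did not overlap. It fell by 2.09 ± 0.23 (adjusted p 4.22e-06). Cubn fell by 3.85 ± 0.39, from 10605, 10873, 5471 and 9547 to 795, 326, 688, 661 and 406. Amn, the membrane anchor of cubilin, fell by 2.32 and Dab2, the adaptor that binds megalin's tail, fell by 2.91 ± 0.32. Clcn5, the endosomal chloride exchanger, rose by 0.70 ± 0.21 on dim signals of 157, 148, 70.6 and 109.7 against 291, 212, 184, 290.0 and 201.

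Transporters of sodium, phosphate and glucose fell in 20 of 23 measured genes and 1 rose, with a median of -1.70. The main proximal phosphate transporter, Slc34a1, read 14739.9, 14823, 9653 and 14522 against 6154, 4532, 5379, 1978 and 2279 and fell by 1.82 ± 0.33 (adjusted p 0.000351). Here LCM 800 replicates 4 and 5 were below the other 3, unlike Oat. Slc5a2, the low-affinity glucose transporter of the early proximal tubule, fell by 3.72, Slc9a3, the sodium hydrogen exchanger, fell by 1.91, and Slc13a1 and Slc13a3, for sulfate and dicarboxylates, fell, at -3.65 and -3.10. The rise was of Slc20a2, a phosphate transporter found in many cells, at 0.60 ± 0.19, which was lost without sieved replicate 3, at 0.47 (adjusted p 0.0595). In amino acid transport 12 of 16 genes fell (median -1.93). The cystine transporter pair Slc7a9 and Slc3a1 fell, at -3.64 ± 0.24 and -3.24. Slc7a1 and Slc1a3, carriers of cationic amino acids and of glutamate, rose by 0.99 ± 0.28 and 1.03 ± 0.21. Among 13 organic ion transporters 7 fell (median -1.14), with Slc22a6, the basolateral organic anion exchanger, at -3.14 ± 0.49. Slco2b1 and Slco1a4 rose, by 1.15 ± 0.20 and 0.65 ± 0.21.

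The promoters of 3 of these transporters, whose genes fell, are printed, and that of Pck1 as 1 of several genes in the proximal lists that rose. Among the solute carriers named by the rule, only these 3 showed any of the motifs below, so they do not stand for the others that fell. The sequences come from RefSeq on build GRCr8 and cover the 250 bases before the gene's start, read 5′ to 3′ on the gene's strand. Capitals mark 3 motifs on either strand. These are GTTAAT, a half-site of HNF1 factors, AGGTCA, a half-site of nuclear receptors, and TATAAA, the TATA box.
Slc34a1 (chr17:9238984-9239233, minus strand): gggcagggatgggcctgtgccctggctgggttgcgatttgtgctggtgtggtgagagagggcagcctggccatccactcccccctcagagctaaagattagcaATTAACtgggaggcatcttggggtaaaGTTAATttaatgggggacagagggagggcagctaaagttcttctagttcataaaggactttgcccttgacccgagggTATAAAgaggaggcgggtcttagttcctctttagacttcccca
Slc7a12 (chr2:88868104-88868353, minus strand): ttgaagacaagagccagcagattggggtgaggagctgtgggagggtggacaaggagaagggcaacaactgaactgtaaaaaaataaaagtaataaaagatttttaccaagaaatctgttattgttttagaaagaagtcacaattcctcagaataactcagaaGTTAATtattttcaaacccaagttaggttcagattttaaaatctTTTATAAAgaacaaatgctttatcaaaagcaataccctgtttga
Slc7a9 (chr1:97246632-97246881, plus strand): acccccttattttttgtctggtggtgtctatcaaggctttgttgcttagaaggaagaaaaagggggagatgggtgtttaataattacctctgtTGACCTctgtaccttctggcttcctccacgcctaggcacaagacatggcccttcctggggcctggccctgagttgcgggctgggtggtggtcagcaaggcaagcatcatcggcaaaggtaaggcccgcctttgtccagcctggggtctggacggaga
Pck1 (chr3:182348322-182348571, plus strand): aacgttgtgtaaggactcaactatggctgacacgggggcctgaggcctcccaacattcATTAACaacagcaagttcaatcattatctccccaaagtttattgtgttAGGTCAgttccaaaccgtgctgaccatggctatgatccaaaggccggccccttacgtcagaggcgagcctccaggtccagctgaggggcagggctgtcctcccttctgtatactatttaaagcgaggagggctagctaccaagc

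Slc34a1 held GTTAAT in both orientations, 147 and 120 bases before the start, and TATAAA 43 bases before it. In Slc7a12 the letters GTTAAT began 88 bases before the start, and TATAAA lay 44 bases before it in reverse complement and 42 bases before it as written, sharing letters, and in Slc7a9 the reverse complement of AGGTCA began 157 bases before it. Pck1, which rose, held both GTTAAT (reverse strand, 192 bases before) and AGGTCA (144 bases before), so that these letters did not separate it from the genes that fell. Promoters of 300 bases, which also take in 50 bases after the start, were matched for 6749 of the 8081 genes. Of 298 matched genes that fell by at least 2 on the log2 scale, 8.39% held GTTAAT, against 3.17% of 126 that rose as much, 4.35% of the 6325 others and 7.37% of all 27457 promoters in the table. AGGTCA was in 19.5%, 8.73%, 11.9% and 15.7%, and TATAAA in 11.7%, 11.1%, 7.02% and 14.3% of the same groups. The GC box GGGCGG, searched the same way, was in 53.4%, 66.7%, 63.2% and 34.9%. The 4 motifs were searched one by one, so that matches may share letters at their ends, and a match is a run of letters, not a measured binding site. CpG pairs had a median of 16 in 300 bases in the genes that fell, 20 in those that rose and 21 in the others.

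Metabolic enzymes of the proximal tubule fell in most of the measured members. In amino acid, arginine and creatine metabolism 21 of 30 genes fell by limma's test (median -1.64), and no other member was above the sieved mean at an unadjusted p under 0.05. Next to Ass1 and Oat stood Gatm, the first enzyme of creatine synthesis, at -3.36, Aadat, an aminoadipate transaminase, at -3.84, Hao2, a peroxisomal hydroxyacid oxidase, at -3.79, and Dao, the D-amino acid oxidase, at -3.07. Glul, the glutamine synthetase, was not called, at -0.53. Of 12 genes of gluconeogenesis and fructose metabolism 8 fell and 1 rose (median -0.88). Fbp1, the fructose bisphosphatase, read 6955, 7056, 3664 and 7242 against 1540.2, 948, 1337, 987 and 1278 and fell by 2.27 ± 0.31.

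Pck1, the cytosolic carboxykinase that commits carbon to glucose, went the other way. Its sieved arrays read 12934, 12310.1, 8513 and 10070.2 and its LCM 800 arrays 33771, 26013, 25018, 14194 and 19404, with no overlap and replicate 4 lowest among the latter. Pck1 rose by 1.07 ± 0.29 (adjusted p 0.00559), and with LCM 800 replicates 1 to 3 left out the change was 0.62 (adjusted p 0.125). Cytochrome P450 and conjugation enzymes, which modify drugs, steroids and fatty acids, fell in 26 and rose in 8 of 43 genes (median -1.19). Cyp2c23, the main renal epoxygenase of the rat, fell by 3.71 ± 0.42 and Cyp2e1 fell by 3.33 ± 0.38. Cyp27a1, the sterol hydroxylase of mitochondria, rose by 1.76 ± 0.28, from 267, 304, 433 and 359.8 to 1924, 1922, 1559.9, 827 and 736. Of 6 measured transcription factors of proximal genes 2 fell, Hnf4a at -1.62 ± 0.35 and Maf at -1.95 ± 0.27.

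Segments beyond the proximal tubule were lower as well, with 3 genes that rose. In the list of thick limb, distal tubule and collecting duct 14 of 28 genes fell (median -0.80). Umod, the uromodulin of the thick limb, read 14980.0, 16355, 10225 and 14781 against 2229, 1906, 1839, 3100.1 and 2673 and fell by 2.56 ± 0.42 (adjusted p 0.000154). Klk1, the kallikrein of the connecting tubule, fell by 3.72 ± 0.31, Spp1, osteopontin, fell by 3.06 ± 0.24, and Kcnj1, the potassium channel of the thick limb and collecting duct, fell by 2.74. Aqp2, the water channel of collecting duct principal cells, rose by 1.32 ± 0.41 (adjusted p 0.0131). It read 3847, 3059, 1765 and 8440.0 in the sieved arrays and 13925, 10661, 9906, 5950.2 and 7478 in LCM 800, so the groups overlapped through sieved replicate 4 and LCM 800 replicates 4 and 5. Without sieved replicate 3, the lowest, the change was 0.98 (adjusted p 0.0533). Krt7, a keratin of simple epithelia, rose by 1.68 ± 0.53, from 519, 646, 629 and 667 to 4628, 5152, 3365, 776 and 609.7, where replicates 4 and 5 stayed near the sieved arrays. With LCM 800 replicates 1 to 3 left out, Aqp2 changed by 0.86 (adjusted p 0.185) and Krt7 by 0.15 (adjusted p 0.698), and limma called no rise in the list.

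Glomerular cells were measured in both groups, and their lists did not shift as 1 block. Synpo, Nphs1, Podxl and Wt1, taken here as podocyte genes but not checked for being limited to podocytes, were bright on every array compared. The lowest reading was 822 intensity units, for Wt1 in sieved replicate 2. Synpo, the actin-binding synaptopodin of foot processes, read 5653, 4437, 10445 and 5132 in the sieved arrays and 20428, 26117, 19437, 15826 and 19617 in LCM 800, without overlap. It rose by 1.71 ± 0.27 (adjusted p 9.37e-05). Nphs1, the nephrin of the slit diaphragm, read 1955, 1399, 4669.7 and 1179.9 against 3810.2, 6168, 5963, 3449 and 4235 and rose by 1.19 ± 0.37 (adjusted p 0.0126), though sieved replicate 3 lay within the LCM 800 range. The call was lost without sieved replicate 4, at 0.95 (adjusted p 0.0558), and with all probe sets averaged it was 0.27 (adjusted p 0.475). Podxl, the sialic acid coat protein podocalyxin, fell by 0.72 ± 0.25 (adjusted p 0.0234), and without sieved replicate 3 or 1 it changed by -0.48 (adjusted p 0.0847) and -0.71 (adjusted p 0.0552). Wt1, the podocyte transcription factor, read 1378, 822, 2987 and 922 against 1347, 1822, 2372, 1812 and 2187 and was not called, at 0.47 ± 0.34 (adjusted p 0.263). Without sieved replicate 3, its highest sieved array, it was 0.84 (adjusted p 0.0279), but the mean of all its probe sets gave -0.49 (adjusted p 0.144).

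Of 14 slit diaphragm and adhesion genes 5 rose and 3 fell (median -0.09, and 0.38 with LCM 800 replicates 1 to 3 left out). Besides Nphs1, the rises were Plce1, a phospholipase C mutated in early nephrotic syndrome, at 1.97 ± 0.28, Fyn, the kinase of nephrin's tail, at 1.28 ± 0.34, Itga3, the podocyte integrin, at 1.23, and Tjp1 at 0.94. For Fyn sieved replicate 3 lay inside the LCM 800 range. Ezr, the ezrin that ties membranes to actin in podocytes and in brush borders, fell by 2.02 ± 0.35 and Ptpro, a podocyte phosphatase, fell by 1.43 ± 0.31. The podocyte cytoskeleton list had 5 rises and 2 falls among 16 genes (median 0.51), and without sieved replicate 3 the rises numbered 8. Rhpn1, a rhophilin, rose by 2.68 ± 0.44, from 74.2, 32.3, 544 and 212 to 1676, 2075, 1698, 887 and 791. Actn4 and Myh9, an alpha-actinin and a myosin heavy chain, fell by 1.14 ± 0.31 and 0.97 ± 0.35, and the call on Myh9 was lost without any 1 of 4 arrays, with -0.70 (adjusted p 0.0697) without LCM 800 replicate 5. Among 8 podocyte transcription factors Zhx2 and Tcf7l2 rose, by 1.003 ± 0.27 and 1.25 ± 0.30, and Tcf21 fell by 0.60 ± 0.22, a call lost when any 1 of 6 arrays was left out, with -0.40 (adjusted p 0.118) without sieved replicate 3. Cdkn1c, the cell cycle inhibitor p57 of resting podocytes, rose by 2.29 ± 0.37, from 3829, 2709, 7953 and 2468 to 25806, 29438, 23737, 9947 and 12722. It was the 1 rise against 6 falls in the list of podocyte secreted proteins and enzymes, where Mme, Enpep and Dpp4 also belong to brush borders.

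Endothelial genes rose in 8 and fell in 2 of 21 (median 0.69), with the rises at 38.1% against 32.3% of all genes. Kdr, the main receptor of vascular endothelial growth factor, read 2457, 1571, 5619 and 1590.2 against 3809.7, 5496, 4864, 6697 and 9762 and rose by 1.24 ± 0.36 (adjusted p 0.00924). Sieved replicate 3 lay inside the LCM 800 range. Egfl7, a secreted vascular protein, rose by 2.27 ± 0.29 and Rasip1, needed for vessel lumens, by 2.23 ± 0.39. Plat, the tissue plasminogen activator, fell by 1.71 ± 0.31 and Vwf, of clotting and of larger vessels, fell by 1.31 ± 0.33. Pecam1 was not called, at 0.25 ± 0.34, with LCM 800 replicates 1 to 3 above every sieved array and replicate 5 below them, at 448, 550.1, 548, 247 and 94.1 against 238, 235, 387 and 232.

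Of 22 mesangial genes 5 rose and 3 fell (median 0.43). Thy1, the antigen of rat mesangial cells, read 319.6, 106, 1009 and 302 against 1269, 1050.1, 1063, 833 and 775 and rose by 1.38 ± 0.44 (adjusted p 0.0152). Sieved replicate 3 lay inside the LCM 800 range. Sieved replicate 2 was far below the rest, and without replicate 2 the change was 0.98 (adjusted p 0.0692). Cspg4, a pericyte proteoglycan, rose by 1.52 ± 0.23 and Hopx, a homeodomain protein, by 1.39 ± 0.38, with sieved replicate 3 inside the LCM 800 range for Hopx. Nt5e, the ecto-nucleotidase that proximal cells and interstitial fibroblasts also carry, fell by 2.32 ± 0.29, and Igfbp5, a binding protein of insulin-like growth factors, fell by 1.57 ± 0.22, a call lost with all its probe sets averaged, at -0.58 (adjusted p 0.0539). Pdgfrb, the mesangial growth factor receptor, was not called, at -0.31 ± 0.29, and it was 0.02 (adjusted p 0.946) without sieved replicate 3. The count of mesangial rises became 9 without sieved replicate 3 and 8 without LCM 800 replicate 2. In the list of parietal cells, which line Bowman's capsule, 5 of 11 genes fell, led by Cd24 at -3.26 ± 0.27 and Alcam at -1.94 ± 0.29, and Krt18 rose by 0.58 ± 0.23, a call lost without any 1 of 6 arrays, with 0.51 (adjusted p 0.104) without sieved replicate 3. Arteriolar smooth muscle had 4 rises among 10 genes, or 40% against 32.3% of all genes. They included Tpm2, a tropomyosin, at 2.26 ± 0.55 and Mylk, the myosin light chain kinase, at 1.05 ± 0.28. For both genes sieved replicate 3 lay inside the LCM 800 range. The 1 fall in the list was Akr1b7, a reductase of renin cells, at -2.65 ± 0.75.

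**Figure D3:**
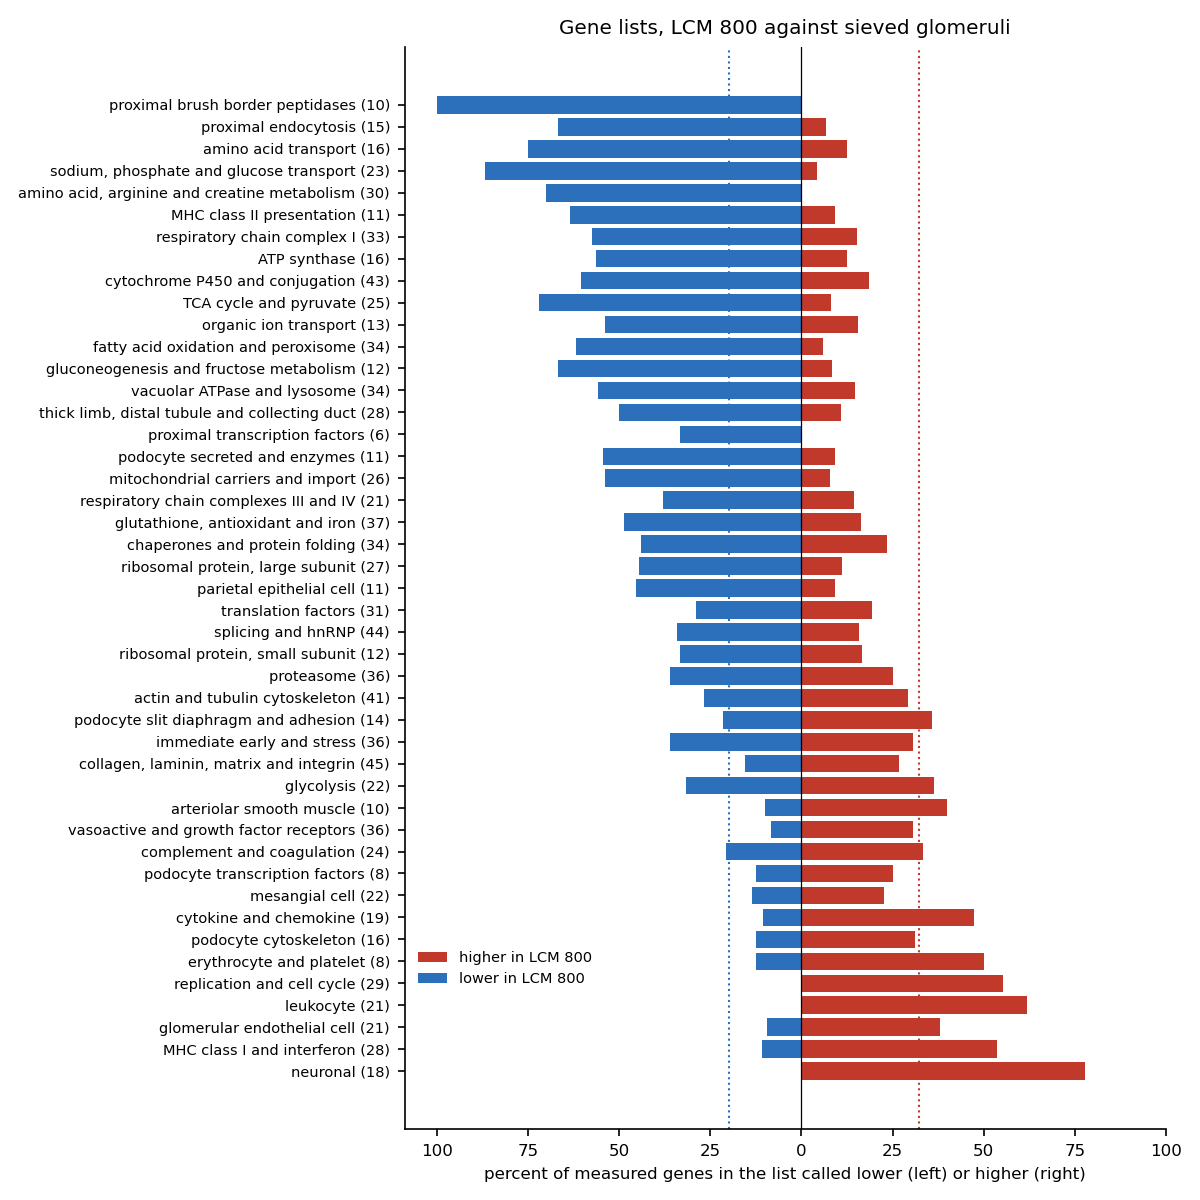
Share of the measured genes of each list that fell (bars to the left, percent) or rose (bars to the right, percent) in LCM 800, with the number of measured genes in brackets and lists ordered by median change. Dotted lines mark the shares over all genes, 19.8% and 32.3%, and the tubule and mitochondrial lists at the top lie left of them.

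**Figure D4:**
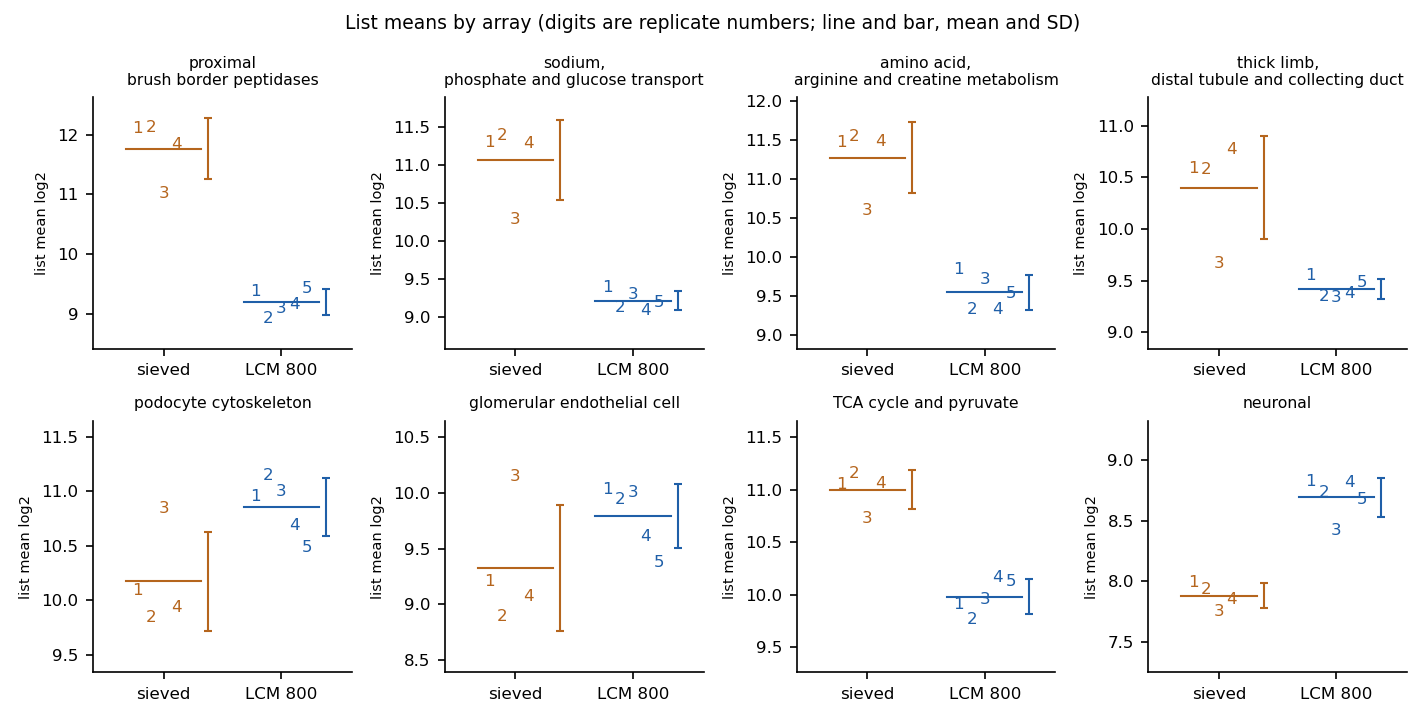
Mean log2(signal + 65.29) of 8 lists in each array, with digits for replicate numbers, lines for group means and bars for SD (4 sieved and 5 LCM 800 arrays). Each panel has its own axis range. Sieved replicate 3 lies lowest among the sieved arrays in the tubule lists and highest in the podocyte cytoskeleton and endothelial lists.

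Mitochondrial genes fell in more than their background share. The cycle of citric acid and pyruvate had 18 falls and 2 rises among 25 genes (median -1.16), and its array means did not overlap, with a mean of 10.996 ± 0.18 in the sieved arrays and 9.98 ± 0.16 in the LCM 800 arrays (SD). Sdhb, of succinate dehydrogenase, fell by 2.64 ± 0.33 and Suclg2, of succinyl-CoA synthetase, fell by 2.30 ± 0.20. Idh2 and Pdk1 rose, by 1.21 ± 0.27 and 1.42 ± 0.32. In the complex I list 19 of 33 genes fell and 5 rose (median -1.23). These counts include Ndufa4, at -2.66 ± 0.23, which is named for complex I but is a subunit of complex IV. The spread within complex I was wide, from Ndufa11 at -2.35 ± 0.27 to Ndufb3 at 1.84 ± 0.35. Ndufa11 read 1971, 2094, 1705 and 2034 against 520, 456, 458, 188 and 170. Ndufb3 read 2231, 2698, 2527 and 2794 against 5195, 5396, 10598, 12746 and 18656. Complexes III and IV had 8 falls and 3 rises among 21 genes (median -0.57), from Uqcrfs1, the Rieske protein, at -3.49 ± 0.52 to Cox7a2l. ATP synthase had 9 falls and 2 rises among 16, and Atp5f1e, the epsilon subunit, rose by 1.20 ± 0.41. Without LCM 800 replicates 1 to 3 it was 0.11 (adjusted p 0.779), and the call was also lost without any 1 of these 3 or sieved replicate 1 or 2, at 0.95 to 1.11.

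Fatty acid oxidation and peroxisomes had 21 falls and 2 rises among 34 genes (median -0.99), led by Acat1, the mitochondrial thiolase, at -2.39 ± 0.20 and Etfa, which passes electrons from acyl-CoA dehydrogenases, at -2.16 ± 0.43. Mitochondrial carriers and import proteins had 14 falls and 2 rises among 26. Slc25a10, the dicarboxylate carrier, fell by 3.11 ± 0.35 and Hspa9, the mitochondrial Hsp70, fell by 2.52 ± 0.29. Tomm22, an import receptor, rose by 0.89 ± 0.19. Glycolysis was mixed, with 8 rises and 7 falls among 22 genes (median 0.23). Eno1, the common enolase, read 4491, 4911, 4214 and 5192 against 385, 505, 554, 209 and 139 and fell by 3.61 ± 0.31, while Eno2, the neuronal form, rose by 1.08 ± 0.20 from dim signals of 79.8, 92.1, 125 and 93.8. Pfkp, the platelet form of phosphofructokinase, rose by 1.34 ± 0.23 and Gpi, the glucose phosphate isomerase, fell by 2.30 ± 0.34.

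Housekeeping assemblies split among their own members. Large ribosomal subunit proteins had 12 falls and 3 rises among 27 genes (median -0.43). Rplp0, the stalk protein often used as a reference, read 4005, 4011, 3855 and 3553 against 479.7, 896, 611, 273 and 182 and fell by 2.98 ± 0.42. Rpl13a, also a common reference, read 2334, 2277, 4176 and 2330.4 against 17982, 18223, 14999, 7409 and 9024 and rose by 2.21 ± 0.30 (adjusted p 2.94e-05). The small subunit went from Rps24 at -2.73 ± 0.22 to Rps28 at 1.604 ± 0.48 over 12 genes, with 4 falls and 2 rises. In the proteasome 13 of 36 fell and 9 rose (median -0.12), and Psma2, a core subunit, at -3.12 ± 0.32 stood against Psmd11, a lid subunit, at 1.90 ± 0.24. Ribosomal protein genes have many processed copies in the genome, and how the probe sets treat them is not given in the sources used here.

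Translation factors had 9 falls and 6 rises among 31 genes. Eef2, the elongation factor that moves the ribosome, fell by 3.94 ± 0.55 and Eif4a1, the helicase of initiation, fell by 3.51 ± 0.24. Eif3d rose by 1.16 ± 0.22. Splicing factors and hnRNP proteins had 15 falls and 7 rises among 44 (median -0.35, and 0.09 with LCM 800 replicates 1 to 3 left out), from Tra2a at -2.15 ± 0.30 to Sfpq at 1.43 ± 0.34. With all its probe sets averaged, Sfpq was at 0.60 (adjusted p 0.0635). For chaperones the counts were 15 and 8 of 34. Hsp90b1, the endoplasmic reticulum form of Hsp90, read 4909, 4458, 4704 and 4488 against 466, 607, 542, 622 and 127 and fell by 3.26 ± 0.31, and Hsp90ab1 fell by 2.79 ± 0.46. Hspb1, a small heat shock protein, rose by 2.06 ± 0.70 (adjusted p 0.0221) through LCM 800 replicates 1 to 3, at 4679.6, 5371, 9384, 1334 and 527, and the call was lost without LCM 800 replicate 2 or 3 and without sieved replicate 1 or 2. The 8 chaperone rises became 5 without LCM 800 replicate 3 and without sieved replicate 1 or 2. Lysosome and proton pump genes had 19 falls and 5 rises among 34 (median -0.82), with Atp6ap1, a pump accessory protein, at -3.33 ± 0.25 beside Psap. Ctss, the cathepsin of antigen-presenting cells, and Gusb, the beta-glucuronidase, rose by 1.46 ± 0.26 and 1.43 ± 0.24. Glutathione, antioxidant and iron genes fell in 18 and rose in 6 of 37, with Gclc, the first enzyme of glutathione synthesis, at -3.92 ± 0.42 and Srxn1, a sulfiredoxin, at 1.72 ± 0.35.

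Antigen presentation was counted in a class II list and in a list that joins class I with interferon genes. MHC class II presentation had 7 falls and 1 rise among 11 genes (median -1.44). RT1-Db1, a class II beta chain, read 3103, 3345, 1250.2 and 2881 against 283, 226, 358, 148 and 167 and fell by 3.12 ± 0.33, and RT1-Ba, an alpha chain, fell by 3.33 ± 0.36. Cd74, the invariant chain, fell by 1.85. The class I and interferon list had 15 rises and 3 falls among 28 (median 0.74), with rises at 53.6% against 32.3% of all genes. After Stat2, the class I gene RT1-T24-3 rose most, by 2.67 ± 0.50, from 288, 88.8, 1761 and 462 to 1991, 3225, 4188, 3172 and 2709.6. Usp18, which restrains interferon signalling, rose by 2.26, and Irf7 and Irf9, its transcription factors, by 1.47 and 1.95. B2m, the light chain of class I molecules, fell by 1.80 ± 0.35 (adjusted p 0.000569). It read 8426, 8234, 12048 and 8476 in the sieved arrays, with replicate 3 highest, and 1132, 1849, 2875, 4381 and 4272 in LCM 800, with replicates 4 and 5 highest. Tapbp, the tapasin that loads class I molecules, fell by 0.97 ± 0.25 (adjusted p 0.00467). The difference between the class II and the class I and interferon list was not tested.

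Matrix, receptor and coagulation lists held rises at 26.7%, 30.6% and 33.3%, close to or under the 32.3% of all genes. F2r, the thrombin receptor, read 1399, 1246, 2218 and 1343 against 9411, 8425, 8357, 6022 and 8832 and rose by 2.38 ± 0.24 (adjusted p 2.16e-06). Lamb2, the laminin beta chain of the glomerular basement membrane, read 1413, 1216, 2246 and 1683 against 11873, 11825, 11486, 5463 and 5306 and rose by 2.38 ± 0.30. Mmp9, a gelatinase, rose by 2.49 ± 0.40, while Dcn, the interstitial proteoglycan decorin, fell by 2.35 ± 0.30 and Timp3, a metalloproteinase inhibitor, fell by 1.75 ± 0.22. The matrix list had 12 rises and 7 falls among 45 genes, and its type IV collagen genes Col4a1, Col4a2, Col4a4 and Col4a5 were not called, at 0.05, 0.44, -0.12 and -0.37. Vasoactive and growth factor receptors had 11 rises and 3 falls among 36 genes, with Ccn2, a matrix-cell growth factor, at 1.499 ± 0.39 and Gucy1a1, the nitric oxide sensor subunit, at 1.496 ± 0.42. For Ccn2 and Gucy1a1 sieved replicate 3 lay inside the LCM 800 range. In complement and coagulation 8 of 24 rose and 5 fell. Plau, the urokinase, fell by 3.17 ± 0.37, F3, tissue factor, fell by 1.87 ± 0.30, and Masp1, a lectin pathway protease, rose by 1.86 ± 0.20.

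Early response genes went both ways, with 11 rises (30.6%) and 13 falls (36.1%) among 36 (median -0.07), against 32.3% and 19.8% of all genes. Atf3, a stress transcription factor, read 5.91, 15.6, 99.8 and 12.7 against 262, 548, 524, 211 and 256 and rose by 2.11 ± 0.31. Sieved replicate 3 was the highest sieved array for it. Ier2 rose by 1.97 ± 0.36, while Gadd45a, a growth arrest gene, fell by 2.65 ± 0.28 and Rhob, a small GTPase, fell by 1.97 ± 0.31. Fos was not called, at 0.30. In actin and tubulin genes 12 rose and 11 fell of 41, or 29.3% and 26.8%, near the same shares of all genes. Tmsb4x, thymosin beta 4, fell by 3.13 ± 0.32 and Pfn1, profilin, fell by 2.95 ± 0.19, both binders of actin monomers, while the tubulins Tubb2a and Tubb2b rose by 2.40 ± 0.22 and 2.40 ± 0.31.

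Rises were frequent in lists of dim probe sets, several of which mark cell types that are scarce in kidney. Of 42 genes of neurons and glia 18 had a tested probe set, and 14 of them rose, which is 77.8% against 32.3% of all genes (median 0.90). Their median signal was 142 in the sieved arrays and 343 in LCM 800. Probe sets were kept, and the brightest chosen, by their mean over all 13 arrays, of which 4 were sieved. Genes dim in the sieved arrays could so enter the lists of this paragraph, and any other list, through high LCM 800 signals, which favours rises. Htr2c, a serotonin receptor of the brain, read 197, 137, 104 and 129 against 409, 403, 374, 418 and 421 and rose by 1.20 ± 0.19. Npy, a neuropeptide of sympathetic nerves, rose by 1.24 ± 0.33. Among 21 leukocyte genes 13 rose (median 0.68), led by Prf1, the perforin of cytotoxic cells, at 2.33 ± 0.37 and Laptm5, a lysosomal protein of blood cells, at 1.71 ± 0.20. Ptprc, the common leukocyte antigen, was not called, at 0.32, nor was Cd4, at 0.15, or Cd14, at 0.08. Replication and cell cycle genes rose in 16 of 29 (median 0.62), among them Rfc2, a clamp loader of replication, at 1.54 ± 0.21. In these 3 lists limma called no fall, and at an unadjusted p under 0.05 the falls numbered 0, 0 and 1.

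Cytokine genes had 9 rises and 2 falls among 19, with Il16, a chemoattractant of lymphocytes, at 1.73 ± 0.16 and Csf1, the macrophage growth factor, at 1.24 ± 0.25. Of 8 erythrocyte and platelet genes 4 rose. Alas2, the first enzyme of erythroid haem synthesis, read 39.8, 80.6, 19.5 and 23.1 against 327, 746, 304, 629.6 and 571 and rose by 2.42 ± 0.37, and Pf4, of platelets, rose by 1.15 ± 0.28. Slc4a1, the anion exchanger of red cells and of intercalated cells, fell by 1.43 ± 0.36, and Hbb, beta globin, was not called, at 0.49 ± 0.59. In the dimmest 20% of the tested genes 38.3% rose and 9.28% fell, with a median of 0.45, and in the brightest 20% 30.1% rose and 30.5% fell, with a median of 0.01. The brightest 20% held 47 of the 95 falls of 3 or more on the log2 scale and the dimmest 20% held 1. Levels were cut on the mean of both groups, and the pseudocount sets a floor under the log2 signal. Falls of that size therefore had little room among the dimmest genes, so these counts do not show how large falls depend on level. With the dimmest 60% of probe sets removed, the rises were 5 of 5 genes still measured in the neuronal list, 6 of 6 in the leukocyte list, 8 of 12 in the cell cycle list and 2 of 7 in the cytokine list. Under that filter 32.9% of the 6347 probe sets tested rose. The stricter filter used the same mean over all arrays of the series, of which 4 were sieved. List genes dim in the sieved arrays could so pass it through high signals in the other arrays, which favours rises. The counts under it therefore cannot show whether the rises of these lists hold among genes bright in both groups. The part of signal level in these lists' rises was not tested.

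Different probe sets of 1 gene often gave different answers. Among 974 genes with at least 2 tested probe sets, 95 had every probe set higher, 108 every one lower, and 90 had probe sets called in both directions. The 90 were 28.7% of the 314 genes with at least 2 calls. Brightest and second brightest probe sets correlated at 0.43 in their change over the 974 genes, as a description across genes, and their median absolute difference was 0.79. In 108 genes they differed by more than 2 on the log2 scale.

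Canx, the calnexin of the endoplasmic reticulum, had 3 tested probe sets. The brightest read 4152, 3947, 4068 and 3590.1 in the sieved arrays and 8067, 7983, 9469, 8179 and 8879 in LCM 800, and it rose by 1.10 ± 0.19. Another read 2260, 2178, 1764 and 1485 against 139, 85.7, 79.8, 29.7 and 29.0 and fell by 3.89 ± 0.36, and the third fell by 2.83 ± 0.28. Tomm20, an import receptor of mitochondria, rose by 0.82 ± 0.28 on its brightest probe set, a call lost without any 1 of 4 arrays, with 0.69 (adjusted p 0.0542) without LCM 800 replicate 5. It fell by 3.17 ± 0.23 on the other, which read 2799, 3289.7, 2455 and 2328 against 281, 221, 179, 294 and 243. Jun, an early response transcription factor, had changes of 1.77 ± 0.27, -0.84 ± 0.27 and -1.71 ± 0.25 on its 3 probe sets. RT1-Ba fell by 3.33 ± 0.36 on its brightest probe set and rose by 1.30 ± 0.26 on a dim one. Pcbp2, an RNA-binding protein, fell by 1.22 ± 0.24 and rose by 2.53 ± 0.26. Where the probe sets lie along these transcripts was not used here, and the part of the probe set's position in these differences was not tested.

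**Figure D5:**
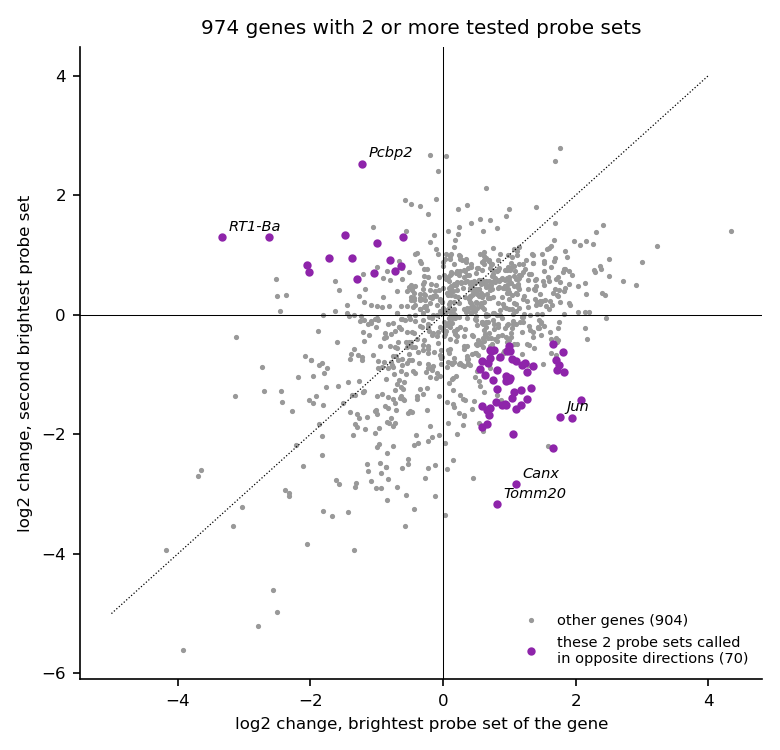
Log2 change of the brightest (horizontal axis) and second brightest (vertical axis) tested probe set of 974 genes, with the line of equality dotted. In 70 genes (purple) these probe sets were called in opposite directions by limma, as in Canx, Tomm20, Jun, RT1-Ba and Pcbp2, and the other 904 are grey.

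Within LCM 800, replicates 1 to 3 and replicates 4 and 5 differed in their mean by more than 1 on the log2 scale in 1920 probe sets, or 17.3%. The subsets were noticed in the data, the labels do not tell them apart, and no test was made between them. Rpsa, a small subunit ribosomal protein, read 15473, 17130.5, 11179.5, 1682 and 1148 in LCM 800 and 1415, 1563, 2849 and 1893 in the sieved arrays, so that only replicates 1 to 3 stood above the sieved range, and it was not called (adjusted p 0.0542). Srrm2, a splicing scaffold, read 5327, 5369, 3275, 549 and 449.8 in LCM 800 and 4481, 4446, 4548 and 4580.1 in the sieved arrays. Here replicates 1 to 3 were near the sieved arrays and replicates 4 and 5 far below them. Tm2d1 went the other way, at 45.8, 5.56, 49.3, 983 and 1136 in LCM 800 and 842, 809, 599.7 and 1043 in the sieved arrays. Hif1a, the hypoxia-inducible factor, read 204, 521, 518, 3456 and 2054 in LCM 800 and 1359, 1365, 2119.9 and 1415 in the sieved arrays, so that replicates 1 to 3 were below the sieved range and replicate 4 above it. Of 3223 probe sets called with a change of at least 1, both subset means lay on the same side of the sieved mean in 3217, or 99.8%, a share that includes the values that made the calls. With replicates 1 to 3 left out, 20 of the 183 genes named by the rule lost their call, among them Idh2, at 0.59 (adjusted p 0.0656), Tpm2, at 1.37 (adjusted p 0.104), Rps28, at 0.30 (adjusted p 0.489), and Thy1, at 1.11 (adjusted p 0.141). With replicates 4 and 5 left out, 3 did. Leaving out replicates 1 to 3 keeps fewer LCM 800 arrays, so these counts also differ in precision and do not by themselves show dependence on a subset. Spiked hybridization controls, with a mean log2 signal of 10.85, 10.80, 10.28, 9.21 and 10.12 in LCM 800 and 10.73, 10.56, 9.00 and 9.19 in the sieved arrays, were higher in each of LCM 800 replicates 1 to 3 than in replicates 4 and 5. Among the sieved arrays they were lowest in replicate 3, with replicate 4 next to it. The part of their level in the subsets and in sieved replicate 3 was not tested. With their level as a covariate, 5682 probe sets were called, against 5764 without it.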

How the data were processed

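The deposited table holds linear signal intensity values of 15923 probe sets in 13 rat arrays, made by the authors with MAS5, per the submitters' processing notes. Array means with 2% of values at each end trimmed were all 500.1, so the scaling was kept as deposited. Detection calls and scanner files were not used here. Signals were taken as log2(signal + 65.29), the pseudocount being the 20th percentile of the table, so changes of dim genes are smaller than their signal ratios. The 57 controls and the 30% of probe sets with the lowest mean log2 over all 13 arrays were removed, which left 11106. The comparison used limma 3.58.1 under R 4.3.3, with lmFit and with eBayes given an intensity trend. The 4 arrays of the series' other group were in the same fit to share the estimate of spread, and p-values were adjusted by Benjamini-Hochberg with a threshold of 0.05. The fit was tested on simulated data with known changes. Tables and figures were made with Python 3.11.15, pandas 2.3.3, scipy 1.17.1 and matplotlib 3.10.9.

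The platform annotation gave 12783 probe sets 1 symbol, 312 several and 2771 none. Each of 8081 genes was read from the brightest, by mean log2 over all 13 arrays, of its probe sets that carry 1 symbol. Named genes were the 15 largest rises and the 15 largest falls past the test without overlap between groups, uncharacterised loci left out, the 2 largest rises and falls past the test in each of 45 lists, and 17 fixed genes, of which 2 had no probe set to test. The members and lists were chosen with earlier results of these data known. The lists came from textbook knowledge, and their genes were not checked for being limited to the cells named. Alternatives were other scalings, pseudocounts, filters, fits and probe set rules, and each array left out. The level of the hybridization controls as a covariate was added after seeing the data. Promoter sequences are from RefSeq on GRCr8.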

Additional observations from a re-analysis of the deposited data

Results flagged for a closer look

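A sample far from the others of its group was looked for in 180 groups of values, the signals of 45 genes and the means of 45 lists in both groups. Dixon's criterion marks about 1 in 20 such groups by chance, and 19 were marked here, 17 of them for sieved replicate 3. Many of these lists and genes move together, so the 17 are not independent of each other. For single genes, sieved replicate 3 was the highest sieved array for B2m, at 12047.8 intensity units, for Mad1l1, at 182, and for Pecam1, at 387. It was the lowest for Slc34a1, at 9653, for Slc4a4, at 2210.1, and for Slco1a6, at 1529.9. LCM 800 replicate 4 was the lowest of its group for Cox7a2l, at 5739, and the highest for Lrp2, at 3855.

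Among the list means, in log2(signal + 65.29), sieved replicate 3 was the lowest for proximal endocytosis, at 11.27, for sodium, phosphate and glucose transport, at 10.29, and for organic ion transport, at 9.54. The same array was lowest for amino acid transport, at 10.28, for gluconeogenesis and fructose metabolism, at 10.56, for amino acid, arginine and creatine metabolism, at 10.60, for fatty acid oxidation and peroxisome, at 10.00, and for proximal transcription factors, at 8.47. In 3 lists it was the highest, at 10.07 for the proteasome, 12.21 for large subunit ribosomal proteins and 10.61 for the actin and tubulin cytoskeleton.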

How the results depend on the processing

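Over the alternatives run, 151 of the 183 genes named by the rule kept their direction and their side of the threshold under all 23 settings that gave a value, 28 lost and 2 gained a call under at least 1 setting, and 5 changed sign. The signs changed were those of Pdgfrb, at 0.076 with array weights and, with 1 array left out at a time, at -0.51 to 0.023, the latter without sieved replicate 3, Pecam1, at -0.58 with LCM 800 replicates 1 to 3 left out, and, with all probe sets of a gene averaged, Eif4b at -0.12, Tomm20 at -1.18 and Wt1 at -0.49. With the dimmest 60% removed, 3504 of 6347 probe sets were called, 2089 higher and 1415 lower, as fewer were tested. The genes with probe sets called in both directions were 90, 159 without a filter and 38 with the dimmest 60% removed. Leaving out 1 array at a time gave 4941 to 5723 calls, 2994 to 3501 higher and 1942 to 2256 lower, and 549 to 622 called genes over all lists against 621. Array weights gave 7408 calls, with more rises in the endothelial list (14), the mesangial list (12) and the class I and interferon list (23). The replicate numbers were not taken as pairs, since the labels do not say which arrays share a rat. Same-numbered arrays deviated from their group means with correlations of 0.17, -0.04, 0.06 and -0.15 for numbers 1 to 4. These values cannot settle whether arrays share rats, and the main fit takes all arrays as independent. With the replicate number as a block, 5452 probe sets were called, 3304 higher and 2148 lower. The cause of these shifts was not tested. Depth cannot be read from these arrays, and signals under the pseudocount of 65.29 carry little order.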
